A study of Mus musculus with 42 samples.

Results

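ChemR23 loss was examined in the liver of lean mice, where 7 knockout mice (KO lean) were compared with 7 wild type littermates (WT lean). These 14 libraries, of 42 in the whole series, are all the samples in the deposited table that sets KO against WT on the control diet with vehicle. All 14 mice were male. The KO mice carried a CRISPR/Cas9-edited ChemR23 gene on a C57BL/6J background, and which part of the gene was removed is not given in the sources used here. From 6 weeks of age each of the 14 mice ate a control diet with 10% of its energy as fat for 15 weeks. Each then received vehicle (PBS with ethanol) by injection on 4 days and was killed on day 5 after a fast of at least 4 hours. Whole liver was sequenced as total RNA, 1 library per mouse, so all mice of a group shared genotype, diet and vehicle, and no group here received a drug.

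ChemR23, encoded by Cmklr1, is a G protein-coupled receptor of macrophages, dendritic cells and other cells. It is bound by the protein chemerin, the product of Rarres2, which liver and fat secrete, and by resolvin E1 (RvE1), a lipid derived from eicosapentaenoic acid. Liver holds its own macrophages, the Kupffer cells, which line the sinusoids and clear particles, complement-coated cells and old red cells from the blood. Blood monocytes can enter the liver and become macrophages there.

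Values are normalized counts, that is, reads per gene divided by the size factor of the library. A fold change is the difference between KO lean and WT lean on the log2(normalized count + 1) scale, which understates the change of genes with few reads. A gene was called when its Benjamini-Hochberg adjusted p in limma was under 0.1 and its fold change exceeded 1.5 in either direction. Reads on the 13031 genes of the table numbered 16989097 to 40033457 per mouse, with a median of 19594222 in WT lean and 25203326 in KO lean mice. The table holds no gene with a mean normalized count under 9.09, so genes of low level were not tested.

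KO lean mouse 20R stood apart from its group. Among the 1480 genes called when it was left out, its own level lay nearer the KO mean in 176 (11.9%). For the other 6 KO mice that share was 54.7% to 95.5%, and for the 7 WT mice 50.9% to 95.9%. Its Cmklr1 and Wscd2 values lay with the KO mice. Mice also share a number that opens their identifiers (8, 19, 21 and 26 in WT lean, 9, 14 and 20 in KO lean), whose meaning is not given in the sources used here. Each number occurs in 1 genotype, so the effect of genotype cannot be told apart from that of the few numbers behind it. With the number as a random block (correlation 0.217) all 866 called genes kept their sign, but 3 stayed called, Wscd2, Cmklr1 and Ms4a6c. The others then had adjusted p-values between 0.111 and 0.228, with a median of 0.146.

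Across the genome, limma called 866 of 13031 genes, 514 higher (3.94%) and 352 lower (2.70%) in KO lean mice. Regardless of fold, 1042 genes (8.00%) were higher and 1081 (8.30%) lower at an adjusted p under 0.1. In 42 genes (0.322%) every KO mouse lay above every WT mouse, and in 55 (0.422%) every KO mouse lay below. The middle 50% of all log2 fold changes lay between -0.22 and 0.22. Leaving out 1 mouse at a time gave 388 to 1480 called genes, and 228 higher and 64 lower genes were called in all 14 of these fits. The count was 388 without 26R and 390 without 21L, both WT mice, and 400 without 9L, 435 without 20L and 1480 without 20R, all KO mice. It fell to 8 without the mice of number 26, 15 without number 9 and 32 without number 21. When reads were scaled to equal totals instead, the median of all genes shifted by -0.116 on the log2 scale and the calls became 265 higher and 734 lower.

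**Figure D1:**
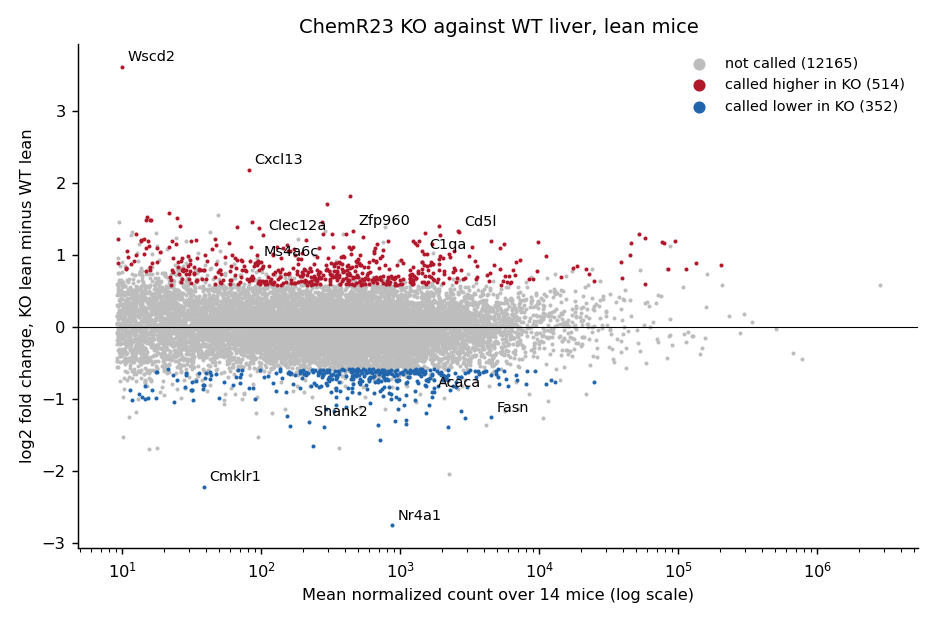
Mean normalized count over the 14 lean mice (log axis) against the log2 fold change of KO lean minus WT lean for each of 13031 genes. Red points are the 514 genes called higher, blue points the 352 called lower and grey points the rest. Wscd2 at 3.62 and Nr4a1 at -2.76 mark the upper and lower ends of the genes called.

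Cmklr1, the edited gene, lies on chromosome 5 of GRCm38 (mm10), chr5:113612354-113650426 on the minus strand. Its normalized count ran from 40.8 to 114 with a median of 62.0 in WT lean mice, and from 9.72 to 22.6 with a median of 10.7 in KO lean mice. The groups did not overlap, yet every KO mouse kept some reads, at least 9 each and 101 over the group against 435 in WT mice. On the log2 scale the difference was -2.23 (SE 0.24, adjusted p = 0.000492), and with the identifier number as a block the adjusted p was 0.00181. Per read on the listed genes, Cmklr1 was at 0.187 of its WT level, with an exact binomial 95% interval of 0.149 to 0.232 that covers counting error only.

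Wscd2, the nearest tested neighbour, encodes a WSC domain protein and lies 22.6 kb away on the plus strand at chr5:113490333-113589725. In WT lean mice it had 4 reads in all, with no read in 3 mice and 1 read in each of the others. In KO lean mice the 142 reads gave normalized counts from 11.9 to 33.8 with a median of 17.1. Every KO mouse thus lay far above every WT mouse, and no called gene had a larger log2 fold change (3.62, SE 0.34, adjusted p = 0.000114). Per read on the listed genes the level was 28.5 times that of WT mice, with an exact binomial 95% interval of 10.9 to 106. The difference was as large in obese mice on a high fat diet (3.45, adjusted p = 0.0216), as was that of Cmklr1 (-2.04, adjusted p = 0.0339).

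The other 13 tested genes within 500 kb of Cmklr1 were not called. Of these Sart3, a splicing factor gene, passed the adjusted p without the fold (-0.42, adjusted p = 0.0839). Acacb, the acetyl-CoA carboxylase of the mitochondrial surface, had a log2 fold change of -0.59 with an adjusted p of 0.156. The other 11 lay between -0.38 and 0.19.

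A list of 20 genes of chemerin, RvE1 and related lipid mediators had 13 in the table. Of these Cmklr1 was called lower and 2 were called higher (15.4% against 3.94% of all genes), neither of them Cmklr1 or the chemerin gene. The higher count was 0 without the mice of number 21 or 26 and 1 without number 14 or 9. Both higher genes encode formyl peptide receptors, which sense bacterial peptides and lipid mediators on phagocytes. Fpr2 ran from 7.70 to 19.1 in WT lean and from 20.4 to 76.1 in KO lean mice, with no overlap (log2 fold change 1.40, SE 0.27, adjusted p = 0.0304). Fpr1 ran from 24.3 to 54.6 in WT and from 48.0 to 93.8 in KO mice, so 4 of 7 KO mice lay above all WT mice (0.79, SE 0.21, adjusted p = 0.0444). Rarres2, the chemerin gene, had 3120 ± 544 (SD, n = 7 mice) in WT lean mice and 2979 ± 698 (SD, n = 7) in KO lean mice, a log2 difference of -0.08 with an adjusted p of 0.771. The enzyme genes Alox5, Alox15 and Ptgs2 and the chemerin receptor gene Gpr1 are not in the table.

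Genes of liver macrophages were higher in KO lean mice. All 22 Kupffer cell genes listed were in the table, each had a fold change above 0, and 14 of them (63.6% against 3.94% of all genes) were called higher with a median log2 fold change of 0.79. The summed normalized count of the list ran from 9114 to 15440 in WT lean and from 16380 to 31460 in KO lean mice, without overlap. In whole liver, more cells of a type and more RNA per cell cannot be told apart. Leaving out 1 mouse gave 11 to 14 called genes, and the count fell to 0 without the mice of number 26, 2 without number 9 and 7 without number 21. edgeR called 12 of the listed genes higher and DESeq2 13, and with correction for gene length and GC content 13 were called higher.

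Among these, Clec4f, a lectin that in mice marks Kupffer cells, ran from 962 to 2249 in WT lean and from 1905 to 5640 in KO lean mice. Of the KO mice, 5 of 7 lay above the highest WT mouse (log2 fold change 0.98, SE 0.23, adjusted p = 0.0357). Cd5l, a secreted macrophage protein, had 1513 ± 557 (SD, n = 7 mice) in WT and 3798 ± 1425 (SD, n = 7) in KO mice, and the lowest KO mouse, at 2656, stood just above the highest WT mouse, at 2628 (1.32, SE 0.23, adjusted p = 0.0247). Vsig4, the receptor with which Kupffer cells take up complement-coated particles, rose by 0.84 (SE 0.18, adjusted p = 0.0308). Timd4, a receptor for dying cells carried by long-lived Kupffer cells, rose by 0.77 (SE 0.16, adjusted p = 0.0308). Marco, a scavenger receptor, ran from 18.2 to 49.8 in WT and from 32.9 to 349 in KO mice and had the largest fold change of the list (1.46, SE 0.43, adjusted p = 0.0560). Csf1r, the receptor for the growth factor that macrophages need to survive, rose by 0.60 (SE 0.17, adjusted p = 0.0491). The 8 members that were not called included Cd163 (0.07), Folr2 (0.37) and Cd68 (0.38).

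C1qa, C1qb and C1qc encode the chains of C1q, which opens the classical complement pathway and which macrophages make in liver. C1qa ran from 734 to 1321 with a median of 917 in WT lean mice and from 1574 to 3029 with a median of 1781 in KO lean mice (log2 fold change 1.01, SE 0.16, adjusted p = 0.0205). C1qb ran from 536 to 1116 in WT and from 1278 to 3304 in KO mice (1.17, SE 0.22, adjusted p = 0.0302). In both genes the groups did not overlap, mouse 20R included. C1qc rose less (0.59, SE 0.16, adjusted p = 0.0473), with 3 of 7 KO mice above all WT mice, and it lost the fold threshold with reads at equal totals (0.47).

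Genes of monocytes and recruited macrophages were also higher, with 8 of the 14 in the table called (57.1% against 3.94%) and a median of 0.77. The mean deviation of the list, taken per mouse on the log2 scale, ran from -0.95 to -0.03 in WT lean and from 0.11 to 0.72 in KO lean mice, so the groups stood apart. Ms4a6c, a tetraspan membrane protein of myeloid cells, ran from 52.5 to 76.3 with a median of 70.9 in WT lean and from 104 to 165 with a median of 117 in KO lean mice. The difference of 0.92 on the log2 scale (SE 0.13, adjusted p = 0.0125) held with the identifier number as a block (adjusted p = 0.0801). The neighbouring Ms4a6d (1.17, SE 0.19, adjusted p = 0.0205) and Ms4a6b (1.23, SE 0.26, adjusted p = 0.0308) also rose, and reads may be divided among these similar genes. Clec12a, an inhibitory lectin of myeloid cells, ran from 29.8 to 89.9 in WT and from 93.2 to 203 in KO mice (1.28, SE 0.21, adjusted p = 0.0205). Ccr2, the receptor that draws monocytes out of marrow, rose by 0.78 (SE 0.26, adjusted p = 0.0697). Ly6c2, Chil3 and F13a1, defining genes of blood monocytes, are not in the table, and Itgam (0.35), Cx3cr1 (0.03) and Trem2 (0.63) were not called. Leaving out 1 mouse gave 7 to 9 called genes, while 2 remained called in number without the mice of number 26, 3 without number 9 and 4 without number 21.

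The promoters of 5 of these genes are shown beside that of Cmklr1, as the 250 bases before the first start that the RefSeq table lists in GRCm38.p6, because the macrophage genes moved together. That start lies inside the gene as GENCODE M21 draws it for Cmklr1 (6823 bases from the gene's 5' end), Clec12a (7553 bases), C1qc (151 bases) and Ms4a6c (2 bases), so these windows are not upstream of the whole gene. Capitals mark GAGGAA, the purine-rich core of the box bound by PU.1, a transcription factor of macrophages, on either strand (TTCCTC on the other).
Cmklr1 promoter, chr5:113643604-113643853 (- strand): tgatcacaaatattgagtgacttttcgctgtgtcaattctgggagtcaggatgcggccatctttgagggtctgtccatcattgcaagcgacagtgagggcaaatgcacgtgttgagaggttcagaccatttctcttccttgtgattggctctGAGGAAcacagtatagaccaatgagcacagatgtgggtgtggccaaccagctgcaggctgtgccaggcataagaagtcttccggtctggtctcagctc
Ms4a6c promoter, chr19:11469118-11469367 (+ strand): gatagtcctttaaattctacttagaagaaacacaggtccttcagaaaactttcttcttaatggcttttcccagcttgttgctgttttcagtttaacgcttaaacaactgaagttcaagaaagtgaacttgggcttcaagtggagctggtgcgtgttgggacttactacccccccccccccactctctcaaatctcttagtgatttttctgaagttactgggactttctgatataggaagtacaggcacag
Cd5l promoter, chr3:87357631-87357880 (+ strand): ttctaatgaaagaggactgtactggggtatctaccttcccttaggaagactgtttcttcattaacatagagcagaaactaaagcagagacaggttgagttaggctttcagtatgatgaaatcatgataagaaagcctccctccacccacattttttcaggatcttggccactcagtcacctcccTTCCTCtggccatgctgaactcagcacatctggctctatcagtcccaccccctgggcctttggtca
C1qb promoter, chr4:136886201-136886450 (- strand): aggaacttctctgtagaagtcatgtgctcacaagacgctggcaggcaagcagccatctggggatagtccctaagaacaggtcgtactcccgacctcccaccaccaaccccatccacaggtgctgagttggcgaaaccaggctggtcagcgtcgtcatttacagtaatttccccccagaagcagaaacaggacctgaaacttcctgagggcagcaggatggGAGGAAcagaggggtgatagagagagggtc
C1qc promoter, chr4:136892915-136893164 (- strand): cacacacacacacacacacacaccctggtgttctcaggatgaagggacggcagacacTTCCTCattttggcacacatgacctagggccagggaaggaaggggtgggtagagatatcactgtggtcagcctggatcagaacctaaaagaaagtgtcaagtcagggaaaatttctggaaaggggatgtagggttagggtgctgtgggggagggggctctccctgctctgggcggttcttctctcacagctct
Clec12a promoter, chr6:129349994-129350243 (+ strand): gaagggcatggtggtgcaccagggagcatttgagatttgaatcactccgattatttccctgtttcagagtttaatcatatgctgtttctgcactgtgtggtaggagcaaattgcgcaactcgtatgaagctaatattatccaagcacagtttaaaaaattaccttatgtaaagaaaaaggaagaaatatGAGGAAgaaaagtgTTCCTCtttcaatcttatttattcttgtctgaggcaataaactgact
Each window except that of Ms4a6c held the letters, with a pair of matches in Clec12a. Of the 36 Kupffer cell and monocyte genes in the table, 29 had an entry, and GAGGAA was in 15 of them (51.7%) against 6252 of all 27025 promoters of the same length (23.1%). Longer or shifted spellings that overlap it were searched as well, on both strands. GAGGAAG was in 31.0% against 10.4%, GGAAGT in 37.9% against 20.0%, AGAGGAAG in 13.8% against 3.64%, and GAGGAAGT in 3.45% against 2.44%. The motif was chosen after the values were seen, and a match describes letters only.

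**Figure D2:**
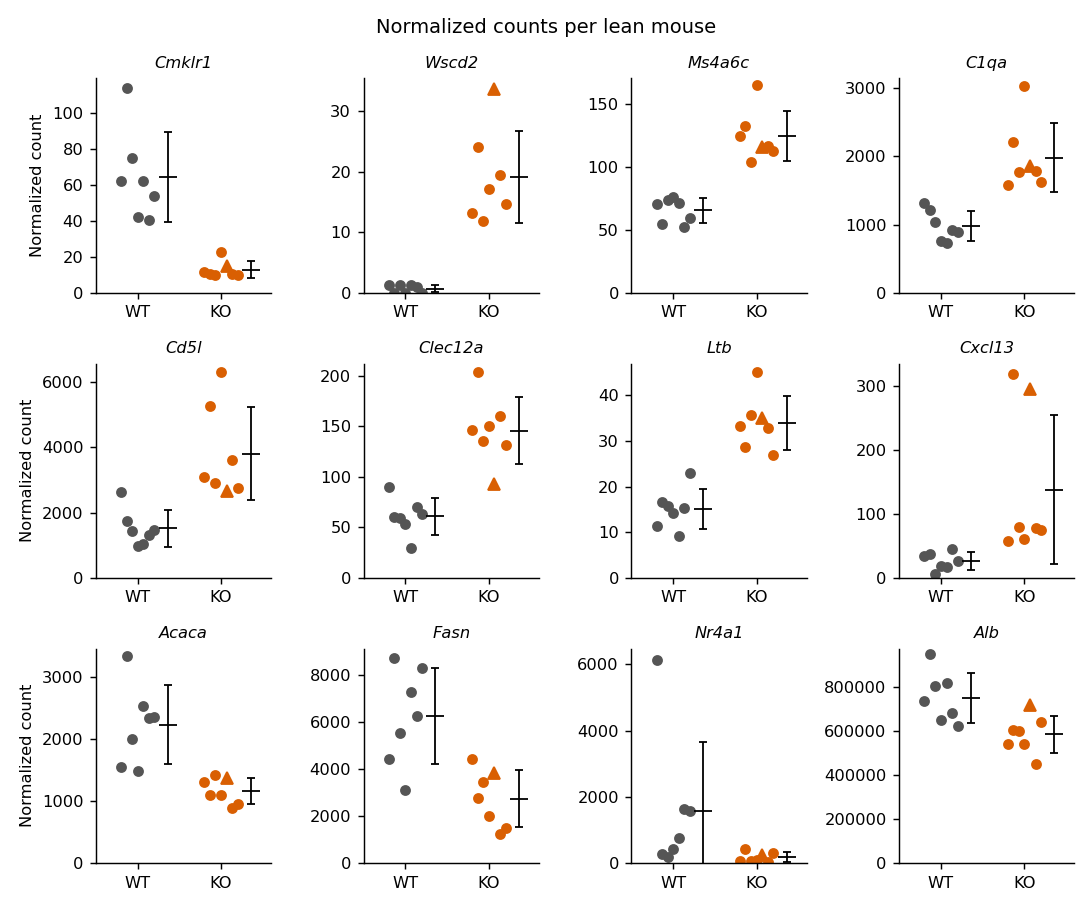
Normalized count per lean mouse for 12 genes, each panel with its own linear axis from 0. Grey points are WT mice and orange points KO mice, a triangle marks mouse 20R, and the black mark is the mean ± SD of 7 mice, cut at 0 for Nr4a1. Cmklr1, Wscd2, Ms4a6c, C1qa, Cd5l, Clec12a, Ltb, Cxcl13 and Acaca separate the groups, whereas Fasn, Nr4a1 and Alb overlap.

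Genes of lymphocytes were partly higher. Of 12 T and NK cell genes in the table, 5 were called higher (41.7% against 3.94% of all genes), with a median of 0.62. Ltb, a membrane-bound cytokine of lymphocytes, ran from 9.08 to 23.1 with a median of 15.4 in WT lean mice and from 26.9 to 45.2 with a median of 33.4 in KO lean mice, without overlap (log2 fold change 1.15, SE 0.20, adjusted p = 0.0247). Klrk1, the activating receptor NKG2D of NK cells, ran from 13.6 to 29.6 in WT and from 33.4 to 50.8 in KO mice, again apart (0.93, SE 0.20, adjusted p = 0.0308). Klrd1, Lck and Cxcr6 were the other 3. The count was 3 without WT lean mouse 21L, 26R or KO lean mouse 20-2L, 20L or 9L. It was 1 without the mice of number 21 or 9 and 0 without number 26. Cd3d, Cd3e, Cd3g, Cd8a and Ncr1, the defining markers, are not in the table. Of 9 B cell genes 2 were called higher (22.2%), Ms4a1, which encodes CD20 (1.09, adjusted p = 0.0683), and Cd79b (0.88, adjusted p = 0.0826). Neither call held without mouse 21L, 26R, 14RL, 20-2L, 9L or 9RL, while 1 held without 19R, 21R or 20L.

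The other cell types showed few calls, to be read beside the 3.94% of all genes called higher and the 2.70% called lower. Of 24 genes of the sinusoidal endothelium 3 were called higher (12.5%). These were Mrc1, the mannose receptor (0.59, adjusted p = 0.0357), Wnt2, a zonation signal of central vein and sinusoidal cells (0.85, adjusted p = 0.0417), and Fcgr2b, an Fc receptor (0.64, adjusted p = 0.0463). The count was 5 without 19R or 9RL and 1 without 26R, 8RL or 9L. Of 20 stellate cell genes Lum alone was called (0.60, adjusted p = 0.0788), and the call was lost without any of 9 mice (21L, 26L, 26R, 8RL, 8R, 14-2L, 14RL, 20-2L and 9L). Stellate genes called lower numbered 2 without 20R and 1 without 21L, 21R, 8RL, 14-2L, 20-2L, 9L or 9RL. Of 9 cholangiocyte genes the keratin Krt19 was called lower (-0.62, adjusted p = 0.0745), and beside it Epcam had -0.65 (adjusted p = 0.101). The Krt19 call was lost without 21L, 21R, 26R, 8R, 14RL, 20-2L, 20L or 9L, and 2 genes were called without 26L or 14-2L. No member of the 7 dendritic cell or 6 neutrophil genes was called by limma, edgeR or DESeq2, and none had an unadjusted p under 0.05. One neutrophil gene was called without 26L.

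No hepatocyte gene was called, with 0 of 14 by limma, edgeR or DESeq2 and 1 higher and 1 lower at an unadjusted p under 0.05. Their median was -0.14, and 3 of the 14 lay above 0. Alb, the main secreted protein of hepatocytes, had 749100 ± 114600 (SD, n = 7 mice) in WT lean mice and 584200 ± 84250 (SD, n = 7) in KO lean mice (log2 fold change -0.36, SE 0.19, adjusted p = 0.245). The summed count of the list ran from 1544000 to 2106000 in WT and from 1492000 to 1957000 in KO mice. Of the KO sums, 5 of 7 were at most 1592000, below 6 of 7 WT sums, while WT mouse 8R had 1544000 and KO mouse 20R 1957000.

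Markers of other tissues were in the table in part. No hemoglobin gene is in it, and limma, edgeR and DESeq2 called 0 of the 3 erythroid genes that are, with 0 at an unadjusted p under 0.05. Of 13 pancreatic acinar genes 1 is in it. Of 8 adipocyte genes 3 are in it, not Adipoq or Plin1, and their summed count ran from 6777 to 59970 in WT and from 3917 to 41420 in KO mice. Among them Fabp4, a fatty acid binding protein also made by macrophages and endothelium, had 0.95 (adjusted p = 0.116 by limma), and it was called by edgeR and DESeq2 and by limma without 20R. All 6 genes of the mesothelium, which covers the liver, were tested, with a median of -0.36 and a summed count from 1712 to 2958 in WT and from 2402 to 4244 in KO mice. Krt8, a keratin that hepatocytes also make, was the member called higher (0.68, SE 0.16, adjusted p = 0.0357), and it fell under the fold threshold at equal totals (0.56) and with length and GC correction (0.53). One of the 6 was called lower without 9RL. Their part in the results was not tested.

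**Figure D3:**
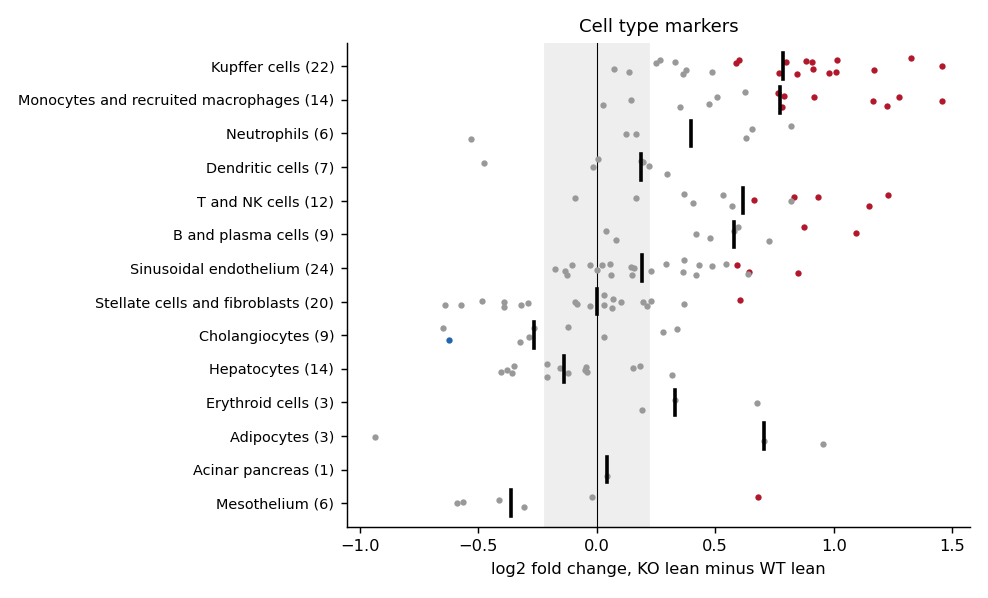
Log2 fold change of KO lean minus WT lean for each tested gene of 14 cell type lists, with the number of genes in brackets. Red and blue points are genes called higher and lower, grey points are not called, black bars are list medians and the grey band is the middle 50% of all genes. The Kupffer cell and monocyte medians lie at 0.79 and 0.77, outside the band, and the hepatocyte median at -0.14 inside it.

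Immune pathway lists held calls as well, in part for genes already counted above. Of all genes 3.94% were called higher and 2.70% lower. Among 30 complement genes 7 were called higher (23.3%) and 0 lower, though the list's median was -0.01. The members that rose are mainly of macrophage origin, the 3 C1q genes, Vsig4, Cfp (properdin, 0.80, adjusted p = 0.0357) and C3ar1 (the receptor for C3a, 0.93, adjusted p = 0.0308), together with the hepatocyte lectin gene Mbl1 (0.59, adjusted p = 0.0547). The C1q genes, Vsig4 and Cfp are also called members of the Kupffer cell list, 5 of the 7. C3, made by hepatocytes, had -0.50 (adjusted p = 0.145). One gene was called lower without 14-2L and 2 without 20R. Complement genes called higher numbered 4 without the mice of number 21, 0 without number 26 and 1 without number 9. Of 43 interferon-stimulated genes 8 were called higher (18.6%), with a median of 0.23. Ifi27l2a led them (1.38, adjusted p = 0.0302), followed by Ifit1, an inhibitor of viral RNA translation (0.82, adjusted p = 0.0461), and Zbp1, a sensor of Z-form nucleic acid (0.77, adjusted p = 0.0423). The count was 3 without mouse 21L, 4 without 20L and 5 without 26R, 20-2L or 9L, and 3 with reads at equal totals. It was 0 without the mice of number 21, 26 or 9. One was called lower without 19R or 20R.

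Cxcl13, a chemokine that attracts B cells, ran from 6.07 to 44.4 with a median of 26.4 in WT lean mice and from 58.0 to 319 with a median of 77.3 in KO lean mice (log2 fold change 2.19, SE 0.46, adjusted p = 0.0308). No KO mouse overlapped with WT, and a pair of KO mice, 20R among them, had 296 and 319 while the other 5 lay between 58.0 and 78.8. Ccl6, a chemokine of myeloid cells, was the other of 17 chemokine genes called (0.66, adjusted p = 0.0641), and its call was lost without 21L, 26R, 14RL, 20L or 9L. Of 13 chemokine receptor genes 3 were called higher (23.1% against 3.94% of all genes), Cxcr3 (0.97, adjusted p = 0.0458), Ccr2 and Cxcr6, of which the last 2 are also called in the monocyte and lymphocyte lists. That count was 1 without 21L, 26R, 14-2L, 14RL, 20-2L or 20L and 0 without 9L. Of 17 class I presentation genes 1 was called higher (5.88% against 3.94% of all genes), Psmb9, an immunoproteasome subunit (0.84, adjusted p = 0.0488). Of 8 class II genes 1 was called higher (12.5%), H2-Ob (0.83, adjusted p = 0.0839). Most members were not called, though 14 of the 17 and all 8 lay above 0, with medians of 0.17 and 0.365. Of 23 acute phase genes 2 were called higher (8.7%), Hpx, which binds heme (0.80, adjusted p = 0.0447), and Apcs, serum amyloid P (1.18, adjusted p = 0.0907). Saa1 was not called (0.64, adjusted p = 0.564). For Psmb9, 2 genes of its list were called without 8R or 20R and 0 without 21L or 20L, the H2-Ob call was lost without 19R, 21L, 21R, 26R, 14RL, 20L, 9L or 9RL, and 1 acute phase gene was called without 21L, 26R, 14-2L, 20L, 9L or 9RL.

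Some genes of the respiratory chain and of ribosomes were higher in KO lean mice, and most were not called. The respiratory chain passes electrons through complexes I to IV to power ATP synthase, and no gene of it was called lower by limma, edgeR or DESeq2. By complex, 7 of 36 complex I genes (19.4%), 6 of 29 genes of complexes II to IV (20.7%) and 4 of 17 ATP synthase genes (23.5%) were called higher. Of all genes 3.94% were. Ndufc2, a complex I subunit, ran from 1348 to 2935 in WT lean and from 2040 to 6148 in KO lean mice, with 6 of 7 KO mice above all WT mice (log2 fold change 1.12, SE 0.24, adjusted p = 0.0311). Cox7b of complex IV had 0.95 (adjusted p = 0.0348), Cyc1 of complex III 0.71 (adjusted p = 0.0398) and Atp5j of ATP synthase 0.75 (adjusted p = 0.0361). Of 76 mitochondrial ribosomal protein genes 8 rose (10.5%), led by Mrps33 (1.11) and Mrpl12 (1.16, adjusted p = 0.0334). Of 82 cytosolic ribosomal protein genes 7 rose (8.54%) around a list median of -0.05, and 36 of the 82 lay above 0. Cytosolic calls were 4 higher and 4 lower with length and GC correction, and 4 higher and 3 lower at equal totals. With correction for length and GC content 4 complex I genes, 2 of complexes II to IV and 2 of ATP synthase stayed called in number, and the complex I median went from 0.13 to 0.00. Without 21L the 5 lists held 4, 3, 1, 4 and 4 calls in the order given, without 26R 3, 3, 1, 4 and 3, without 9L 4 in complex I, 3, 1 and 4 in the next lists, and without 20-2L 3 in complexes II to IV, 1 in ATP synthase and 4 in each ribosomal list. Cytosolic ribosomal calls were also 4 without 14RL. Each of the 5 lists held 0 calls without the mice of number 21, 26 or 9.

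Gene length moved with the whole comparison. Median exonic length was 2618 bases in genes called higher, 8101 in genes called lower and 4370 in all genes tested. Among the shortest 20% of genes 238 were higher and 17 lower, and their median on the log2 scale was 0.14, and among the longest 20% 23 were higher and 189 lower, with a median of -0.17. In obese mice the corresponding medians were -0.05 and 0.03. Per mouse, the median deviation of the shortest 20% minus that of the longest ran from -0.32 to 0.02 in WT lean and from -0.12 to 0.63 in KO lean mice. KO lean mouse 20L had the highest value and 20R, at -0.12, the lowest of the KO mice. With correction for length and GC content 579 genes were called, 364 higher and 215 lower, and 469 of these were among the 866 called without it. Of 8 nuclear and polymerase III noncoding RNAs 2 were called higher (25% against 3.94% of all genes). The list's median was -0.177, and 3 of the 8 lay above 0. The 2 called were Rpph1 and Rmrp, RNA parts of RNase P and RNase MRP (1.71, adjusted p = 0.0461, and 0.77, adjusted p = 0.0683), while Malat1, a long nuclear RNA, had -0.45 (adjusted p = 0.182). One of these calls was left without 26L, 26R, 8R, 14RL, 20-2L, 20L or 9L and none without 21L, and 1 of the 8 was called lower without 19R. The part of length in the lists of short and of long genes was not otherwise tested.

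Genes of transcription and chromatin, many of them long, were lower in part. Of 26 genes of transcription elongation and Mediator, the machinery that releases and steers RNA polymerase II, 7 were called lower (26.9% against 2.70% of all genes) with a median of -0.41, and their median length was 8228.5 bases. Ccnt1, cyclin T1 of the elongation factor P-TEFb, ran from 248 to 353 with a median of 279 in WT lean mice and from 123 to 238 with a median of 147 in KO lean mice, without overlap (log2 fold change -0.82, SE 0.15, adjusted p = 0.0268). Supt6, an elongation factor that travels with the polymerase, had -0.86 (SE 0.20, adjusted p = 0.0357), and Polr2a, the polymerase's largest subunit, -0.93 (SE 0.25, adjusted p = 0.0461). In Supt6 and Polr2a 6 of 7 KO mice lay below all WT mice. The list's mean deviation was 0.22 in mouse 20R, within the WT range of 0.11 to 0.41, and -0.58 to -0.01 in the other KO mice. The count was 3 without 21L, 26R or 9L and 0 without the mice of number 21, 26 or 9. With length and GC correction 3 genes were called, and the median was -0.31.

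Of 52 histone lysine methyltransferase and demethylase genes, with a median length of 7032 bases, 11 were lower (21.2% against 2.70% of all genes) and 0 higher. Kdm6b, which removes methyl groups from lysine 27 of histone H3, had 984 ± 228 (SD, n = 7 mice) in WT lean mice and 528 ± 206 (SD, n = 7) in KO lean mice (-0.96, SE 0.21, adjusted p = 0.0340), and Setd2, which methylates lysine 36 of H3, had -0.67 (adjusted p = 0.0430). One of the 52 was called with length and GC correction, and the count was 3 without 20L, 4 without 26R, 5 without 21L or 9L, 6 without 20-2L and 7 without 8R. Of 103 spliceosome genes 11 were lower (10.7% against 2.70% of all genes) and 6 higher (5.83% against 3.94%). Prpf6, a scaffold of the tri-snRNP, ran from 684 to 813 in WT and from 345 to 599 in KO mice, apart (-0.69, SE 0.12, adjusted p = 0.0264), and it kept that size after length and GC correction (-0.71, adjusted p = 0.0307). The lower count was 3 without 21L, 4 without 26R or 9L, 5 without 20L and 6 without 14RL, and the higher count 2 without 21L, 26R, 20-2L or 9L and 3 without 14RL or 20L. Of 70 ribosome biogenesis genes 8 were lower (11.4% against 2.70% of all genes) and 1 higher. Nop58, a core protein of box C/D snoRNPs, had -0.82 (SE 0.17, adjusted p = 0.0308) without overlap between groups. The lower count was 5 without 26R and 4 without 20L, and the 1 higher call was lost without 21L, 26R, 8RL, 8R, 20-2L or 9L and joined by another without 19R. In the histone enzyme, spliceosome and ribosome biogenesis lists 0 genes were called without the mice of number 21, 26 or 9.

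Genes named Zfp, most of which encode zinc finger transcription factors, numbered 321, and 30 of them were higher (9.35% against 3.94% of all genes) and 11 lower (3.43% against 2.70%). Chromosome 17 held 42 of them, of which 11 were higher and 1 lower. On chromosome 17 from Zfp960 to Zfp40 (chr17:17064113-23193252), a stretch chosen after the values were seen, 20 Zfp genes were tested and 9 rose, with a median log2 fold change of 0.49 for the 20 against 0.12 for the same genes in obese mice. Of the 8 other genes tested there 2 were called higher. Zfp960 had 249 ± 41.8 (SD, n = 7 mice) in WT lean mice and 669 ± 259 (SD, n = 7) in KO lean mice (1.34, SE 0.22, adjusted p = 0.0205). Zfp97 ran from 199 to 373 in WT and from 403 to 1169 in KO mice, without overlap (1.25, SE 0.22, adjusted p = 0.0244). These genes are similar in sequence, so that reads may be divided among them. Over the 321 genes the higher count was 19 without 9L, and the lower count lay between 1 without 21L and 19 without 20R, with 2 without 20L, 3 without 26R or 9L, 5 without 14RL and 6 without 20-2L or 9RL. Without the mice of number 21, 26 or 9 the higher count was 3, 0 and 2, and the lower count 0. With reads at equal totals 18 were higher and 22 lower, and the list's median changed sign from 0.08 to -0.04.

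**Figure D4:**
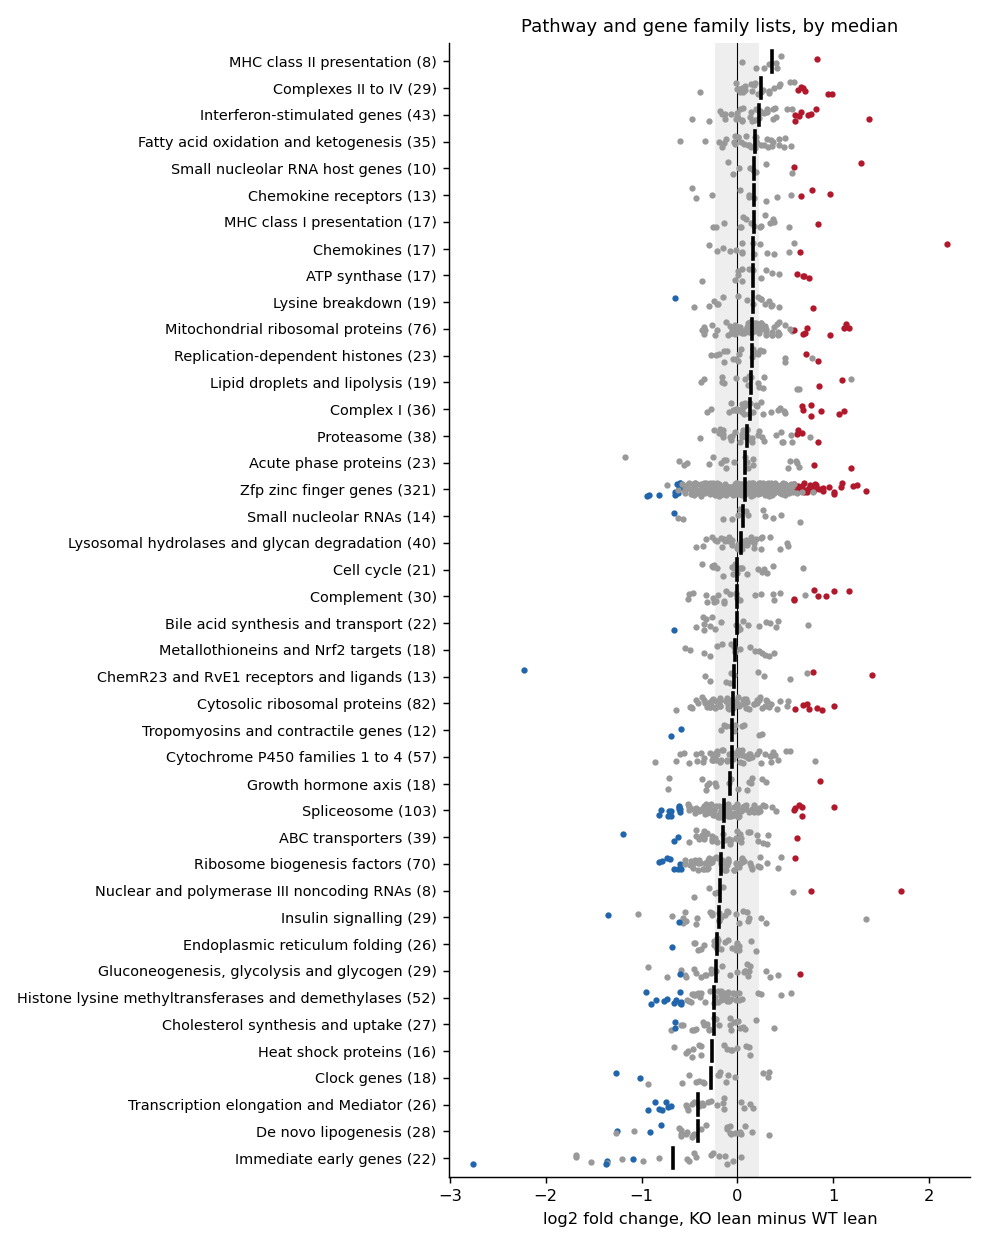
Log2 fold change of KO lean minus WT lean for each tested gene of the pathway and gene family lists, ordered by median, with the number of genes in brackets. Red and blue points are genes called higher and lower, grey points are not called, black bars are medians and the grey band is the middle 50% of all genes. Immediate early genes (-0.67), de novo lipogenesis (-0.41) and transcription elongation and Mediator (-0.41) have the lowest medians.

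A few genes of fatty acid synthesis were lower in KO lean mice. Of 28 de novo lipogenesis genes 3 were called lower (10.7% against 2.70% of all genes), 25 were not called and 0 were higher, with a median of -0.41. Acaca, acetyl-CoA carboxylase, the rate-limiting enzyme, ran from 1485 to 3328 with a median of 2339 in WT lean mice and from 887 to 1416 with a median of 1089 in KO lean mice, so the groups stood apart (log2 fold change -0.91, SE 0.17, adjusted p = 0.0302). With length and GC correction it was -0.60 (adjusted p = 0.0481). Fasn, fatty acid synthase, ran from 3120 to 8765 in WT and from 1243 to 4423 in KO mice, and 4 of 7 KO mice lay below all WT mice (-1.25, SE 0.29, adjusted p = 0.0357). Elovl6, which lengthens palmitate, had -0.79 (SE 0.29, adjusted p = 0.0954). Srebf1, which encodes the lipogenic regulator SREBP-1, had 0.01 (adjusted p = 0.994), Mlxipl, encoding the carbohydrate-responsive ChREBP, -0.48 (adjusted p = 0.0661), and Scd1, the desaturase, -0.45 (adjusted p = 0.298). The list's mean deviation was lowest in the mice of number 9, at -0.69 and -0.67, and in the other 5 KO mice it ran from -0.19 to 0.19 against -0.14 to 0.75 in WT mice. Calls numbered 5 without mouse 26L or 20R or the mice of number 8, 10 without number 20 and 0 without number 9, 21 or 26. The count was 2 without mouse 21L, 21R, 26R, 14-2L, 14RL, 20-2L, 20L, 9L or 9RL.

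Other lipid lists held few calls. Of the cholesterol list 7.41% was called lower, against 2.70% of all genes. Of the lipid droplet list 10.5% was called higher, against 3.94% of all genes. Both lists held 0 calls without the mice of number 21, 26 or 9. Of 27 cholesterol genes Acat2 (-0.65, adjusted p = 0.0480) and Stard4 (-0.65, adjusted p = 0.0747) were lower. Those calls numbered 6 without 20R, 1 without 19R, 14RL or 20L and 0 without 21L, 26R, 9L or 9RL. Among 19 lipid droplet genes Plin5, which coats droplets and tethers them to mitochondria, ran from 1814 to 5247 in WT lean and from 3791 to 10280 in KO lean mice (1.09, SE 0.26, adjusted p = 0.0357). G0s2, an inhibitor of the lipase ATGL, ran from 7337 to 18280 in WT and from 17650 to 29500 in KO mice, with 6 of 7 KO mice above all WT mice (0.86, SE 0.21, adjusted p = 0.0400). Pnpla2, which encodes ATGL itself, had -0.01 (adjusted p = 0.975). None of 35 fatty acid oxidation genes was called by limma, edgeR or DESeq2, with 8 higher and 1 lower at an unadjusted p under 0.05, and Cpt1a, the entry step into mitochondria, had -0.34 (adjusted p = 0.181). Without 19R or 8RL 1 of these and without 20R 2 were called. Of 22 bile acid genes Abcc2, the canalicular export pump, was lower (-0.66, adjusted p = 0.0460), which was lost without 21L, 26R or 9L, and Cyp7a1, the rate-limiting enzyme of bile acid synthesis, had 0.23 (adjusted p = 0.716). Bile acid genes called higher numbered 2 without 20R.

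Genes of glucose handling and insulin signalling showed few calls, with 2 of 29 insulin genes lower (6.9% against 2.70% of all genes). Irs2, an adaptor below the insulin receptor, ran from 633 to 4633 with a median of 1148 in WT lean mice and from 302 to 1135 with a median of 511 in KO lean mice, with 5 of 7 KO mice below all WT mice (log2 fold change -1.35, SE 0.38, adjusted p = 0.0482). Gsk3b, the kinase that restrains glycogen synthesis, had -0.61 (adjusted p = 0.0806), and Insr, the insulin receptor, -0.43 (adjusted p = 0.0701), under the fold threshold. Without 20R 8 of the 29 insulin genes were called lower, without 26L or 14-2L 4, without 21L, 26R, 14RL or 9RL 1, and without 20L or 9L 0. One was called higher without 8RL, 8R or 20R. Of 29 genes of gluconeogenesis, glycolysis and glycogen, Galk1, galactokinase, was higher (0.65, adjusted p = 0.0433), a call that was lost without 20L. Pck1 and G6pc, the gluconeogenic control points, had -0.43 (adjusted p = 0.151) and -0.33 (adjusted p = 0.370).

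Several gene groups of hepatocyte function held no call. Of 57 genes of cytochrome P450 families 1 to 4, which oxidize drugs, steroids and fatty acids, limma and edgeR called 0 and DESeq2 called 1 higher, with 5 higher and 5 lower at an unadjusted p under 0.05. P450 genes called lower numbered 4 without 20R, 2 without 8RL and 1 without 8R or 9RL, and those called higher 2 without 14-2L and 1 without 19R, 26L or 20R. Of 16 heat shock protein genes 0 were called by limma, edgeR or DESeq2, with 2 lower at an unadjusted p under 0.05, although 2 were called lower without 20R and 1 without 8RL or 8R. Of 21 cell cycle genes 0 were called by these tools, with 1 higher and 1 lower at an unadjusted p under 0.05, and 1 was called higher without 26L.

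Immediate early genes, which respond within minutes to stress, handling or growth signals, had the lowest median of the lists, -0.67. Of the 22 tested, 4 were called lower (18.2% against 2.70% of all genes) and 1 lay above 0. Nr4a1, an orphan nuclear receptor gene, ran from 181 to 6143 with a median of 753 in WT lean mice and from 41.7 to 411 with a median of 93.1 in KO lean mice (log2 fold change -2.76, SE 0.72, adjusted p = 0.0431). The ranges overlap, and 4 of 7 KO mice lay below all WT mice. Fosl2 (-1.36, adjusted p = 0.0598), Dusp1 (-1.09, adjusted p = 0.0889) and Atf3 (-1.37, adjusted p = 0.0953) were the others called, while Fos had -1.69 (adjusted p = 0.114) and Egr1 -1.36 (adjusted p = 0.293). Mouse 20R, at 0.52, was again within the WT range of 0.08 to 0.76 of the list's mean deviation, and the other KO mice ran from -1.69 to 0.00. Calls numbered 7 without 26L or 20R, 2 without 14-2L, 14RL, 20-2L or 9RL and 1 without 21L, 26R, 20L or 9L. They numbered 1 without the mice of number 21 and 0 without number 26 or 9. Of 18 clock genes Bhlhe40 (-1.27, adjusted p = 0.0515) and Nfil3 (-1.01, adjusted p = 0.0615) were lower, both of which also answer to acute signals, and Per1 was not called (-0.35, adjusted p = 0.528). The clock count was 1 without 14RL, 20-2L or 9L and 0 without 21L or 26R. Hour of harvest is not given in the sources used here.

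**Figure D5:**
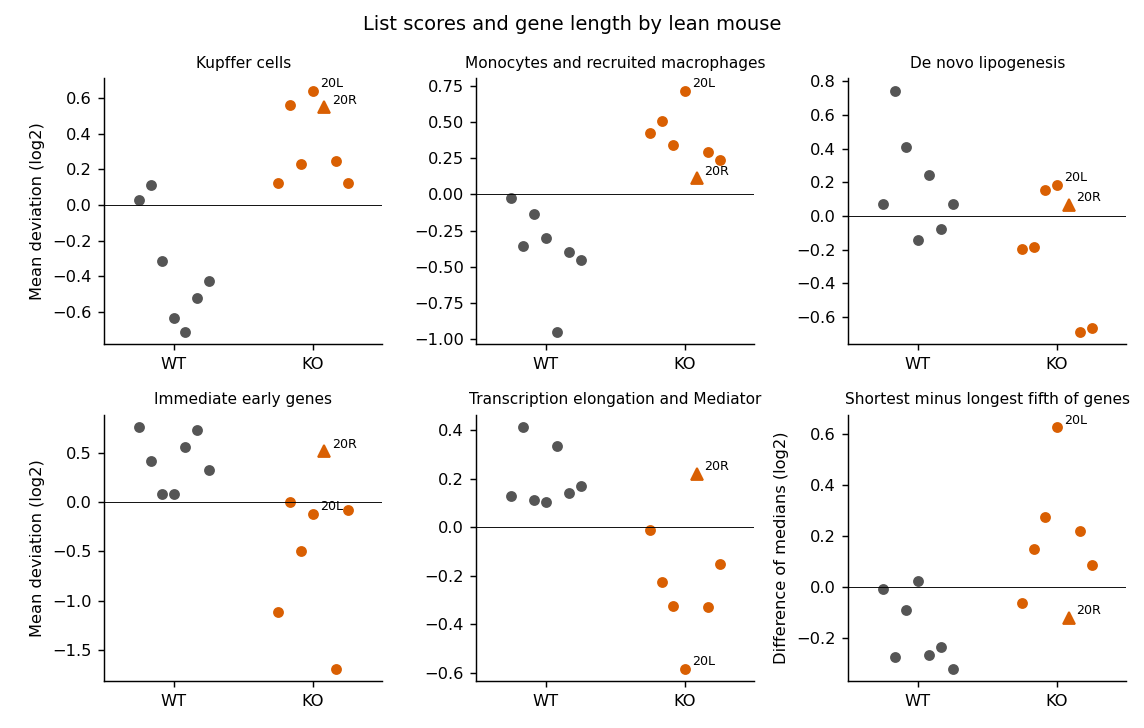
Mean deviation per mouse, on the log2 scale, of the genes of 5 lists, and, in the last panel, the median deviation of the shortest 20% of genes minus that of the longest 20%. Each point is a lean mouse (grey WT, orange KO, with 20L and 20R named and 20R as a triangle). The Kupffer cell and monocyte panels separate the groups, and 20R lies within the WT range for immediate early genes (0.52) and transcription elongation (0.22).

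Further genes with large fold changes stayed called in all 14 fits that left out 1 mouse. Among those higher in KO lean mice, Clec4n (1.38, adjusted p = 0.0302) and Clec4a2 (1.53, adjusted p = 0.0308) encode lectins of myeloid cells, and Wfdc17 (1.46, adjusted p = 0.0243) a small secreted protein of activated macrophages. Clec4n ran from 15.6 to 59.5 in WT lean and from 60.6 to 173 in KO lean mice, without overlap. Ubd, an interferon-induced ubiquitin-like modifier, had 1.49 (adjusted p = 0.0339), and Dkk4, a secreted Wnt inhibitor, 1.58 (adjusted p = 0.0357), with 5 of 7 KO mice above all WT mice. Among those lower, Dusp6, the phosphatase of ERK, had -1.17 (adjusted p = 0.0400), Shank2, a scaffold protein, -1.32 (adjusted p = 0.0302), Fat1, a giant cadherin, -1.14 (adjusted p = 0.0451), Dsp, desmoplakin of desmosomes, -1.09 (adjusted p = 0.0357), and Avpr1a, the hepatic vasopressin receptor, -0.97 (adjusted p = 0.0357). In Shank2, Fat1, Dsp and Avpr1a 6 of 7 KO mice lay below all WT mice.

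The same genotype contrast in obese mice gave little of this pattern. Of the 863 called genes that were also in the obese table, 392 (45.4%) had the same sign there, against 47.2% of all 12999 shared genes, and 16 (1.85%) had the same sign with an unadjusted p under 0.05. The genes called higher in lean mice had a median of 0.01 in obese mice and those called lower 0.05. Kupffer cell genes had a median of 0.09 in obese against 0.79 in lean mice. C1qa had 0.09, Cd5l 0.31 and Fasn -0.09 in obese mice, with adjusted p-values for the lean minus obese difference of 0.140 in C1qa and Cd5l. A test of the difference itself passed an adjusted p of 0.1 in 7 genes by limma, with 2392 at an unadjusted p under 0.05, and in 9 by edgeR. These 7, named after their values were seen, were Vwa1, Purb, Cyb561d2, Arid4a, Nop58, Aftph and Zscan2. Vwa1, an extracellular matrix protein gene, ran from 10.9 to 16.5 in WT lean and from 23.0 to 43.8 in KO lean mice (1.19, SE 0.19, adjusted p = 0.0205) against -0.46 in obese mice. For Kupffer cell, lipogenic and immediate early genes a difference between lean and obese mice was therefore not shown gene by gene.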

How the data were processed

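Liver RNA of 14 lean mice was used, with the 14 obese vehicle mice for 1 comparison. Per the methods and labels, the authors aligned reads to mm10 with Bowtie2, counted them per gene with featureCounts (both ends mapped) and divided them by DESeq2 size factors within each table. The deposited values are thus a normalized signal per gene. Every value was a whole number of reads within a tolerance of 0.1 reads (100%), so reads could be recovered. For the counting, the sources used here give neither version nor strand setting. The authors' own columns of mean, fold change, standard error and p-values were not used, nor were the other 4 tables of the series.

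Genes with a mean of at least 5 entered limma 3.58.1 in R 4.3.3 as log2(normalized count + 1) (lmFit and eBayes with trend, two-sided) and p-values were adjusted over all genes. Mice were taken as independent, 1 library each. Alternatives were edgeR 4.0.16 (quasi-likelihood) and DESeq2 1.42.0 on recovered reads, TMM and equal totals, pseudocounts of 0.5 and 4, a mean of at least 50, loess correction for exonic length and GC content (span 0.3), library quality weights, the identifier number as a random block or by its means, and leaving out each mouse or number. For obese mice the difference of genotype effects was fitted over 4 groups, with fold changes formed within each table. Gene positions were matched for 12921 genes (99.2%), and 21 date-like names were left unnamed. Any 2 libraries of a group differed by far more than sampling noise (chi-square per gene at least 41.8 over 42 pairs).

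The members and the 56 gene lists were chosen with earlier results of these data known, so lists are described by counts and medians and not tested. Named genes were those within 500 kb of Cmklr1, the 3 called list members with the smallest adjusted p per direction, the first 3 markers of each cell type list, the 12 largest fold changes per direction called in every fit without 1 mouse, genes called under the block, and list members a pathway account needs. The text gives a part of them, and some genes are not reported here. A mean deviation of a list is the mean, over its genes, of log2 values minus the mean of the 14 mice. The procedure was tested on simulated data.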

Additional observations from a re-analysis of the deposited data

Results flagged for a closer look

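A mouse stood far from the rest of its group of 7 in 9 of 350 gene or list values checked by Dixon's gap test at the 95% level, and chance alone flags about 1 in 20 groups. Abcc2 was at 9040 normalized counts in KO lean mouse 20R, the highest of its group. In WT lean mouse 19R, Cpt1a at 13900 and Egr1 at 428 were the lowest and Cyb561d2 at 228 the highest of the group. In WT lean mouse 21R, Ms4a1 was lowest at 2.43 and Rpph1 highest at 550. Saa1 was lowest in KO lean mouse 14RL at 437. KO lean mouse 20L had the highest mean deviation of class I presentation genes in its group (0.43) and the lowest of spliceosome genes (-0.29).

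The genotype effect differed between lean and obese mice, by limma's test of the difference itself, in 7 genes. The lean minus obese difference on the log2 scale was 1.65 in Vwa1, 0.99 in Zscan2 and 0.88 in Cyb561d2, and it was -1.2 in Nop58, -0.71 in Purb, -0.67 in Aftph and -0.62 in Arid4a.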

How the results depend on the processing

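The count of 866 called genes was 1536 with library quality weights, 3 when the identifier number was a random block and 299 with means per number. An adjusted p limit of 0.05 left 480, dropping the fold threshold gave 2123, and 11 had an absolute log2 fold change above 1.5. Leaving out 1 mouse gave 388 to 1480, and leaving out number 21, 26, 20 or 9 gave 32, 8, 1363 and 15. The count stayed within 1.5 times of 866 with edgeR, DESeq2, TMM scaling, equal totals, both pseudocounts, a mean of at least 50, length and GC correction, and without number 19, 8 or 14. Dropping the filter on low counts gave the same fit, because it removed no gene, and so tested nothing. The 7 genes whose genotype effect differed between lean and obese mice became 1 with a pseudocount of 4, 2559 with quality weights and 0 with the block, when 995 had an unadjusted p under 0.05. No paired analysis was possible because the numbers in the identifiers differ between the genotypes. The cause of these changes was not tested.

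Among the named genes the sign turned in 7 that were not called. Cd163 was -0.044 on the log2 scale at equal totals, -0.005 by edgeR, -0.001 by DESeq2, -0.083 without number 26 and -0.019 without 14, and ran from -0.007 to 0.243 without 1 mouse. Cx3cr1 was -0.079 at equal totals and -0.112, -0.056, -0.163 and -0.125 without number 19, 26, 14 and 9, and ran from -0.157 to 0.195 without 1 mouse. Cyp7a1 was -0.027 without number 19 and -0.082 without 14, with a range of -0.027 to 0.408 without 1 mouse. Pnpla2 was 0.076 with quality weights, 0.028 with the block, 0.112 with means per number, 0.003 by edgeR, 0.004 by DESeq2, and 0.037, 0.08 and 0.229 without number 21, 26 and 20, with a range of -0.102 to 0.094 without 1 mouse. Rarres2 was 0.006 without number 26 and 0.043 without 14, and Saa1 -0.022 with quality weights. Srebf1 was -0.111 at equal totals, -0.149 with quality weights, -0.062 with the block, -0.196 with means per number, and -0.195, -0.056, -0.03 and -0.496 without number 21, 26, 14 and 20, with a range of -0.152 to 0.256 without 1 mouse. Wscd2, with 4 reads in WT mice, and other genes of few reads carry more counting error than genes of many reads.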
